A study of Rattus norvegicus with 6 samples.

Results

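The HoxD cluster of the rat holds 9 homeobox genes, Hoxd13, Hoxd12, Hoxd11, Hoxd10, Hoxd9, Hoxd8, Hoxd4, Hoxd3 and Hoxd1, and its expression was followed in mesenchymal stem cells (MSC) from the skull and from the leg bones. The genes were taken by symbol from a deposited table of 30498 genes, and all 9 were found in it. There were 3 libraries labelled rcMSC, from cranial bone marrow, and 3 labelled rbMSC, from bone marrow of the thigh and shin (femurs and tibias). Both are labelled wild type (WT) and as mesenchymal stem cells, and no treatment is named. The sources used here give no strain, age, culture conditions or number of animals behind a library. The study is about treating spinal cord injury with transplanted MSC from cranial bone, and the comparison asks how gene expression in rcMSC and rbMSC differs.

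Hox genes encode transcription factors with a DNA-binding homeodomain that give cells their position along the body. Within a cluster the genes are arrayed in the order in which they act, with Hoxd1 and Hoxd3 at the anterior end and Hoxd13 at the posterior end, and the genes of the posterior end also pattern the limbs, where Hoxd13 acts in the digits. Polycomb proteins keep silent Hox genes closed, and in mouse embryos much of the skull forms from cranial neural crest and head mesoderm that use few Hox genes, whereas limb mesenchyme uses many. Connective tissue cells are known to keep part of such a positional pattern in culture.

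Total counts were between 21340290 and 26928079 per library, so 1 count stood for 0.0364 to 0.0468 CPM (counts relative to a library's effective size, found by TMM, the trimmed mean of M values). A level of 3 counts, taken as the floor that a count of 0 allows, was 0.109 to 0.140 CPM per library, which covers counting error only. The library rcMSC replicate 3 stood apart: its counts differed from those of the other rcMSC libraries with a chi-square of 42.0 and 42.8 per degree of freedom, against 2.69 to 3.16 for every other pair within a group, so the main HoxD results are also given without it. Markers used to define MSC were high in both groups, with Thy1 at 505 CPM in rcMSC and 1097 in rbMSC and Cd44 at 726 and 485. Of 10 MSC markers 5 were higher and 5 lower in rcMSC, against 22.6% and 23.2% of all genes tested. Markers of macrophages, which marrow preparations can contain, were also present. Of 15 such genes 10 were lower and 1 higher in rcMSC, against 23.2% and 22.6% of all genes tested, and none was at 0. Their summed level was 662 to 696 CPM in the rcMSC libraries and 1110 to 1117 in the rbMSC libraries, with Lyz2 highest of all (266 and 372 CPM). The summed level of 6 endothelial markers, of which Tek was highest, was at most 12.5 CPM, and those of lymphoid, erythroid and neutrophil markers (highest Cd3e, Klf1 and Mpo, with Cd3g, S100a8 and Elane among those at 0 in all libraries) were at most 0.405 CPM. The part of the macrophage difference in the HoxD values was not tested. In bulk RNA, fewer cells that express a gene and less of its RNA per cell cannot be told apart.

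HoxD expression was lower in the cranial cells and lay in the middle of the cluster in both groups. Hoxd8 and Hoxd9 carried most of the counts, Hoxd4 and Hoxd13 were low in rbMSC and nearly or wholly without counts in rcMSC, Hoxd3 and Hoxd10 were near the floor of 3 counts, and Hoxd1, Hoxd11 and Hoxd12 had 0 counts in all 6 libraries. Summed over the 9 genes, rbMSC replicates 1 to 3 had levels of 13.8, 15.2 and 18.0 CPM. For rcMSC replicates 1 to 3 the levels were 3.02, 3.17 and 2.64 CPM. The groups did not overlap, with 15.7 ± 2.17 CPM in rbMSC and 2.94 ± 0.27 in rcMSC (SD, n = 3 each), and the rcMSC mean was 3.09 without rcMSC replicate 3.

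**Figure D1:**
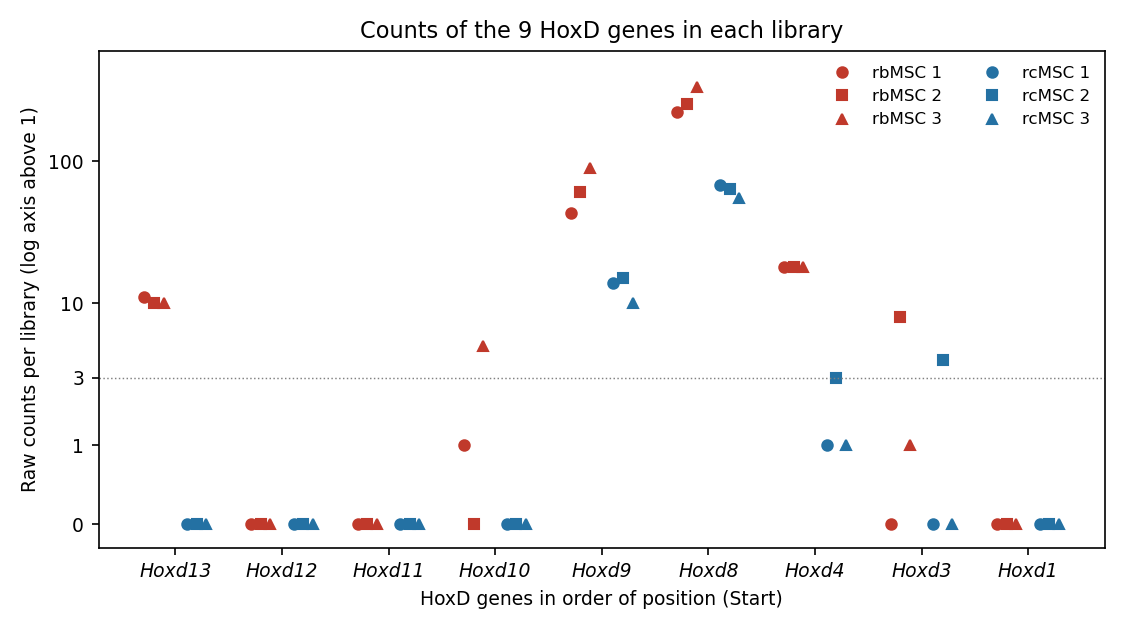
Raw counts of each HoxD gene in each library, on an axis that is logarithmic above 1, with the genes in order of their start. Red symbols are the 3 rbMSC and blue symbols the 3 rcMSC libraries, and the dotted line marks the floor of 3 counts. Hoxd8 and Hoxd9 have at least 10 counts in all 6 libraries, and Hoxd13 has 10 or 11 in rbMSC and 0 in rcMSC.

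Of the 9 genes, 4 passed the filter on low counts and were tested with edgeR's quasi-likelihood test: Hoxd13, Hoxd9, Hoxd8 and Hoxd4. All 4 were lower in rcMSC past an adjusted p of 0.05, and in all 4 every rcMSC library lay below every rbMSC library. Over the 14836 genes tested, 23.2% were lower past the threshold, 45.8% passed it in either direction and 28.8% had every rcMSC library below every rbMSC library. The count of 4 is a description and no support, since the filter asks for about 0.389 CPM in 3 libraries, and Hoxd13, Hoxd9 and Hoxd4 reached that only through rbMSC. Hoxd8 reached it in every library of both groups. The median log2 fold change of the 4 genes was -3.00, also with Hoxd13 at its bound, and that of all genes tested was 0.02. All 4 also fell at least 4-fold, as did 2.79% of all genes tested. The filter limits this median and this share in the same way, so they too are a description and no support.

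Sequences upstream of the 4 tested genes are shown because these genes had enough counts to be tested, while the other HoxD genes had few counts or 0. Each is the run of 250 bases before the start of the gene in RefSeq's annotation of the build GRCr8, on the plus strand, 5′ to 3′, with each CpG (a C followed by a G, the site of DNA methylation) in capitals. GRCr8 is not the build of the counts, mRatBN7.2, and the gene models differ in places, since RefSeq's Hoxd8 is 201 bases and its Hoxd4 2512 bases longer from end to end than the model counted here.

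Hoxd13 chr3:79977827-79978076 (+): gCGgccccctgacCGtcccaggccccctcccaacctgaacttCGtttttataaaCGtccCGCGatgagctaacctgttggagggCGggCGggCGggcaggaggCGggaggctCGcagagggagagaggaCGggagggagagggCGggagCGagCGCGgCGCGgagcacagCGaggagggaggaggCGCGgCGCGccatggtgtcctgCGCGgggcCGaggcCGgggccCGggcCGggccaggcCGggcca

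Hoxd9 chr3:80007756-80008005 (+): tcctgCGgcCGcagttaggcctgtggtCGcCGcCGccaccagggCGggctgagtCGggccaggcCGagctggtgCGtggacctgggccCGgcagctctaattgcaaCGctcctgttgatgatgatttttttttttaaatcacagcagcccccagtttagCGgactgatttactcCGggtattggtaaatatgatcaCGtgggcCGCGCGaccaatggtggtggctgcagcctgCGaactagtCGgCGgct

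Hoxd8 chr3:80014973-80015222 (+): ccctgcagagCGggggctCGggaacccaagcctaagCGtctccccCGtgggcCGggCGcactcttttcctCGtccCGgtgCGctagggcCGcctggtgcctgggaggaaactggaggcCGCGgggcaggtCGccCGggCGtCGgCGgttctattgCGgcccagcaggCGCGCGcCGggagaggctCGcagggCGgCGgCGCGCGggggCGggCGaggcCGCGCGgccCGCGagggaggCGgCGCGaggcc

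Hoxd4 chr3:80021636-80021885 (+): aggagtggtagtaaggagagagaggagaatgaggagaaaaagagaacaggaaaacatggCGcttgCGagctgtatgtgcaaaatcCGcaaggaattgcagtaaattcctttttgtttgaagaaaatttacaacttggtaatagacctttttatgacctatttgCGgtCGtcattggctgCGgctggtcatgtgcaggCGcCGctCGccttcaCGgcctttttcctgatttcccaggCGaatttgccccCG

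The sequence before Hoxd8, the most abundant gene, was the richest in CpG of the 9, with 38 in 250 bases and 78.8% G and C, more CpG than 98.3% of the 33469 rat promoters in the RefSeq table. The Hoxd13 sequence had 30 CpG, that of Hoxd9 20 and that of Hoxd4 12. All 9 HoxD genes had at least 11, against a median of 5 over all promoters, so CpG content did not separate the expressed genes from those without counts: Hoxd1, at 0 counts, had 25. The letters CACGTG (an E-box, the same on both strands) were in 5 of the 9 sequences, of which Hoxd9 has counts in every library, and in 5.59% of all promoters. CCAAT, on either strand, was also in 5 of the 9 and in 34.0% of all promoters, with 2 matches before Hoxd9 and none before Hoxd8 or Hoxd13. The letters TATAAA, on either strand, were before Hoxd13 alone among the 9 and in 12.9% of all promoters. TAAT, the core that homeodomains bind, on either strand, was in 4 of the 9 and in 57.0% of all promoters. None of these letter strings contains another. The motifs were picked from general knowledge, and a match is a description, not a site.

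Hoxd8 (ENSRNOG00000071108, chromosome 3, 59607996 to 59610361 in mRatBN7.2, plus strand) in mouse patterns the trunk and the base of the limbs with its neighbours. It had 221, 254 and 331 counts in rbMSC replicates 1 to 3, or 10.3, 11.0 and 13.1 CPM. In rcMSC replicates 1 to 3 it had 68, 64 and 55 counts, or 2.48, 2.36 and 2.20 CPM. The groups lay far apart, and Hoxd8 stayed well above the floor in every cranial library. Its level was 11.5 ± 1.45 CPM in rbMSC and 2.34 ± 0.14 in rcMSC (SD, n = 3 each), which is 4.89-fold lower in rcMSC, and the log2 fold change was -2.29 with an SE of 0.15 (edgeR adjusted p = 9.27e-07). Without rcMSC replicate 3 the log2 fold change was -2.25. Of the 14836 genes tested, 300 had a lower log2 fold change. Per kb of exon, the level of Hoxd8 was above that of 53.2% of the tested genes in rbMSC and of 21.3% in rcMSC.

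Hoxd9 (ENSRNOG00000001580, chromosome 3, 59600575 to 59602754, plus strand), which in mouse acts with Hoxa9 in the upper limb, lies 5.24 kb before Hoxd8. It had 43, 61 and 90 counts in rbMSC replicates 1 to 3 (2.01, 2.64 and 3.56 CPM), while rcMSC replicates 1 to 3 had 14, 15 and 10 (0.510, 0.552 and 0.400 CPM). Relative to their mean, the rbMSC libraries were spread more widely than for Hoxd8, and the lowest still lay above all rcMSC libraries. The mean level was 2.74 ± 0.78 CPM in rbMSC and 0.487 ± 0.079 in rcMSC (SD, n = 3 each), and the log2 fold change was -2.48 with an SE of 0.30 (edgeR adjusted p = 9.92e-05). It was -2.37 without rcMSC replicate 3 and -2.24 without rbMSC replicate 3, the library with the highest level.

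The counts of Hoxd8 relative to Hoxd9 showed no detectable difference between the groups. In rbMSC replicates 1 to 3, Hoxd8 had 5.14, 4.16 and 3.68 times the counts of Hoxd9. For rcMSC replicates 1 to 3 the ratios were 4.86, 4.27 and 5.50. The ranges overlapped, and the mean log2 ratio differed by 0.18 (exact permutation test over the libraries, two-sided p = 0.4, adjusted p = 0.4 over the 2 ratios so tested, the smallest possible p being 0.1), which does not show that the ratios are equal. Per kb of exon, Hoxd8 had 5.80 ± 0.73 CPM in rbMSC against 1.49 ± 0.43 for Hoxd9, and 1.18 ± 0.070 against 0.266 ± 0.043 in rcMSC (SD, n = 3 each). As a share of the cluster's counts, Hoxd8 took 72.4% to 75.2% in the rbMSC libraries and 74.4% to 83.3% in the rcMSC libraries. The exact binomial 95% intervals of all 6 libraries overlapped, that of rcMSC replicate 2 being 63.9% to 83.2%. Such overlap is no test between the groups, and a difference in this share was not tested.

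Toward the anterior end, Hoxd4 (ENSRNOG00000001578, chromosome 3, 59614464 to 59631528, plus strand), which in mouse patterns the neck vertebrae, was low in both groups. It had 18 counts in each of the 3 rbMSC libraries (0.842, 0.779 and 0.713 CPM) and 1, 3 and 1 counts in rcMSC replicates 1 to 3 (0.0364, 0.110 and 0.0400 CPM). No rcMSC library was above the floor of 3 counts. The mean level was 0.778 ± 0.065 CPM in rbMSC and 0.0623 ± 0.042 in rcMSC (SD, n = 3 each). The log2 fold change was -3.53 with an SE of 0.51 (edgeR adjusted p = 0.000293), -3.32 without rcMSC replicate 3 and -4.17 without rcMSC replicate 2. From the summed counts, 54 against 5, Hoxd4 was 12.3 times higher in rbMSC with an exact binomial 95% interval of 4.97 to 39.5. The counted model of Hoxd4 spans a short antisense row and the row of the microRNA gene Mir10b, both at 0 counts in all libraries.

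Hoxd3 (ENSRNOG00000001577), which in mouse shapes the uppermost neck vertebrae, had 0, 8 and 1 counts in rbMSC replicates 1 to 3. The rcMSC replicates 1 to 3 had 0, 4 and 0. Nearly all of its counts fell in a single library of each group, and the groups overlapped. The ratio of rbMSC to rcMSC was 2.57 with an exact binomial 95% interval of 0.717 to 11.4, so no difference was detectable at this depth. RefSeq's Hoxd3 is 4528 bases longer from end to end than the counted model, so its counts hold for the counted exons only. Hoxd1 (ENSRNOG00000001572), which in mouse acts in pain-sensing neurons, had 0 counts in all 6 libraries.

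At the posterior end, Hoxd13 (ENSRNOG00000001588, chromosome 3, 59570646 to 59573963, plus strand), the gene of the digits and the far end of the limb, was found in rbMSC alone, where it had 11, 10 and 10 counts in replicates 1 to 3 (0.515, 0.433 and 0.396 CPM). It had 0 counts in each rcMSC library. Against a floor of 3 counts over the rcMSC group, its 31 counts, if taken as exact, make it at least 11.8-fold higher in rbMSC (edgeR adjusted p = 0.000958, and 5.21e-05 without rcMSC replicate 3). Its level per kb of exon in rbMSC, 0.180 ± 0.024 CPM (SD, n = 3), was above that of 3.40% of the tested genes. Hoxd13 was thus near the detection limit even where it was present.

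Between Hoxd13 and Hoxd9 the cluster had almost no counts. Hoxd12 (ENSRNOG00000001587) and Hoxd11 (ENSRNOG00000069591), which in mouse shape the forearm and wrist, had 0 counts in all 6 libraries. Hoxd10 (ENSRNOG00000001581), which in mouse acts in hindlimb motor neurons and limb segments, had 1, 0 and 5 counts in rbMSC replicates 1 to 3 and 0 in each rcMSC library. Against the floor of 3 counts over the group its 6 counts, if taken as exact, make it at least 2.28-fold higher in rbMSC. However, 5 of them are in rbMSC replicate 3, and without that library the 1 count left is under the floor and gives no direction. Without the low-count filter, Hoxd10 was tested and did not pass (edgeR adjusted p = 0.115). The counted exons of Hoxd11 cover 1011 bases, and RefSeq's Hoxd11 is 550 bases longer from end to end than the counted model, so a count of 0 holds for the counted exons only.

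The 9 genes cover 97.1 kb on the plus strand, and the nearest tested gene on each side did not pass the threshold over all 6 libraries. On the posterior side, the homeobox gene Evx2 had 1 count in all 6 libraries together. The next tested gene, Lnpk, which encodes a protein of the endoplasmic reticulum and ends at -84.1 kb from the start of Hoxd13, had a level of 67.2 CPM in rbMSC against 60.8 in rcMSC and a log2 fold change of -0.15 with an SE of 0.07 (edgeR adjusted p = 0.109). Without rcMSC replicate 3 Lnpk passed at -0.18 (edgeR adjusted p = 0.0065). On the anterior side, Mtx2, a mitochondrial import protein that starts 159.6 kb after the start of Hoxd13, had 8.58 and 8.25 CPM and a log2 fold change of -0.06 with an SE of 0.12 (edgeR adjusted p = 0.735), which was 0.022 without rcMSC replicate 3. Of 13 tested genes within a list of 16 on both sides of HoxD, 5 were higher in rcMSC and 0 lower, with a median of 0.15, and the largest changes were those of Nfe2l2 (0.82), a regulator of the antioxidant response, and Chn1 (0.48). Over all genes tested, 22.6% were higher. The count of 5 was 3 without rbMSC replicate 1, rbMSC replicate 3 or rcMSC replicate 1, and 9, with Lnpk lower, without rcMSC replicate 3.

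**Figure D2:**
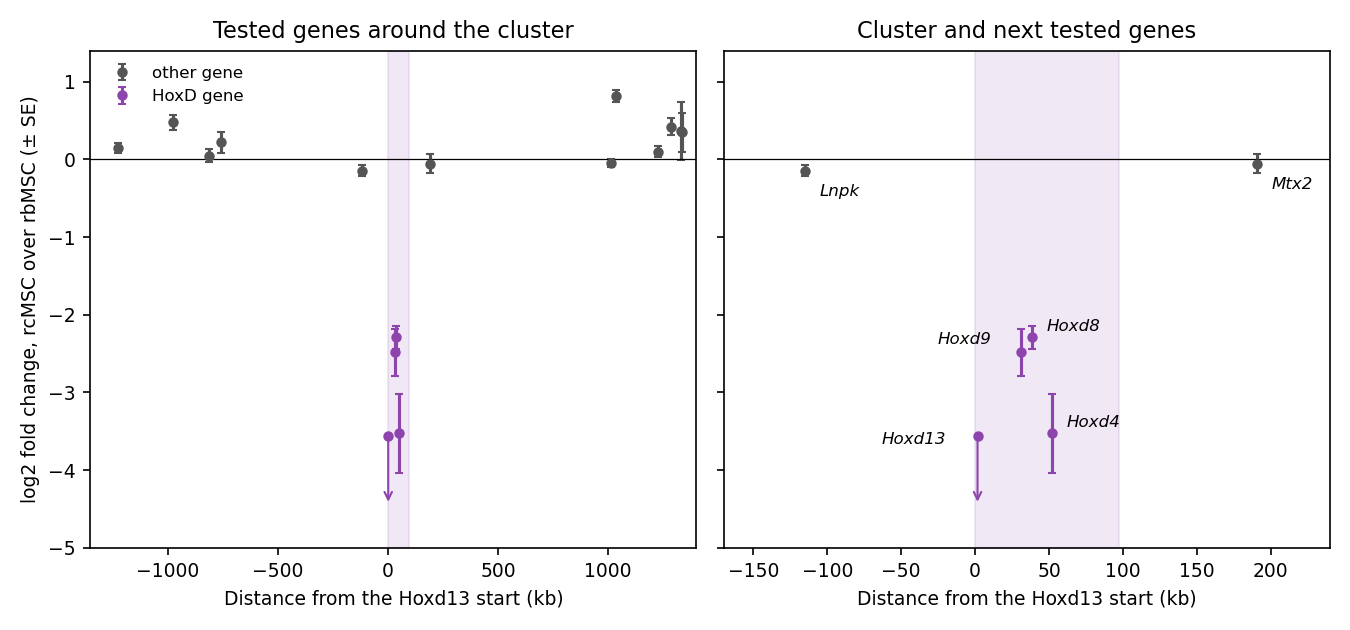
Log2 fold change of rcMSC over rbMSC with its SE for tested genes, against the distance of the gene's middle from the start of Hoxd13 in kb. The left panel shows a wider region and the right panel the cluster (shaded) with the next tested gene on each side. Hoxd13, with 0 counts in rcMSC, is drawn at its bound of -3.56 with an arrow, and the genes outside the cluster lie between -0.15 and 0.82.

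The HoxD genes made up a larger share of Hox counts in the cranial cells than in the leg bone cells. So did the HoxB genes, at 0.124% to 0.176% in the rbMSC and 9.55% to 13.1% in the rcMSC libraries, while HoxA and HoxC took smaller shares. Hoxa10 and Hoxb2 were not found by symbol in the deposited table, which held 10 of 11 listed HoxA genes and 9 of 10 listed HoxB genes. The shares and cluster sums given here leave these genes out. HoxD took 5.96%, 6.86% and 8.07% of the Hox counts in rbMSC replicates 1 to 3, with exact binomial 95% intervals between 5.32% and 8.82%. In rcMSC replicates 1 to 3 it took 57.2% (48.8% to 65.4%), 52.8% (44.8% to 60.6%) and 37.1% (30.0% to 44.6%). The groups did not overlap, and rcMSC replicate 3 was the lowest of its group. In that library HoxC had 58 counts, against 20 and 28 in rcMSC replicates 1 and 2, and HoxD had 66, against 83 and 86. Summed over each cluster, rbMSC exceeded rcMSC 5.34-fold for HoxD (exact binomial 95% interval 4.64 to 6.18, and 5.10-fold without rcMSC replicate 3), 43.0-fold for HoxA (34.8 to 53.7) and 121-fold for HoxC (99.8 to 148), intervals that cover counting error only. The HoxC ratio was 183 without rcMSC replicate 3. For HoxB, with 24 counts in rbMSC and 56 in rcMSC, the same ratio was 0.489 (0.290 to 0.803). That difference lay mainly in Hoxb3, with 4 counts in rbMSC and 35 in rcMSC, while Hoxb4 had 15 and 14. Of the 9 HoxB genes in the table, 0 passed the filter on low counts, so a difference of the cluster was not tested.

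**Figure D3:**
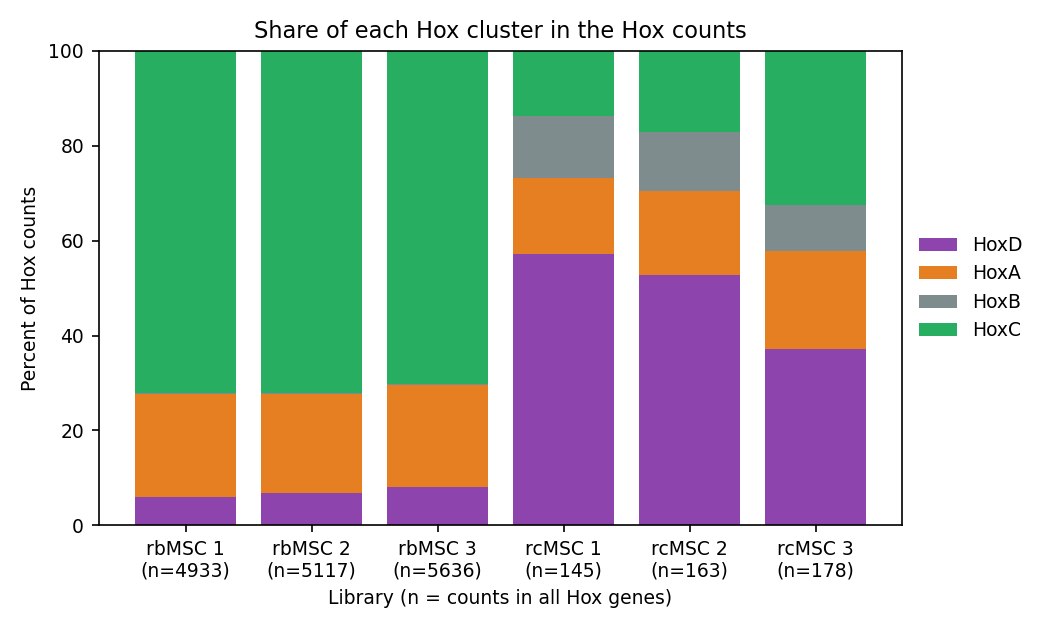
Percent of the counts of Hox genes found by symbol that fell in each of the 4 Hox clusters, for each library, with their number under its name. Hoxa10 and Hoxb2 were not found. HoxD (purple) takes 5.96% to 8.07% in rbMSC and 37.1% to 57.2% in rcMSC, where the Hox genes found have 145 to 178 counts together.

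Genes were also compared within a paralog group, the genes that descend from the same ancestral gene. In rbMSC replicates 1 to 3, Hoxd8 had 0.565, 0.658 and 0.723 times the counts of Hoxc8. For rcMSC replicates 1 to 3 the ratios were 34.0, 16.0 and 7.86. Those 3 ratios rest on only 2, 4 and 7 counts of Hoxc8, near the floor of 3 counts, so their sizes are uncertain. Hoxc8 was the higher of the pair in every rbMSC library and Hoxd8 in every rcMSC library, at a two-sided p = 0.1 in the exact permutation test over libraries, the smallest that 3 against 3 allows (adjusted p = 0.2 over the 2 ratios tested, which were chosen after the values were seen). Hoxc8 itself had a log2 fold change of -6.72 (SE 0.23), against -2.29 (SE 0.15) for Hoxd8, and -7.27 without rcMSC replicate 3. In the next group, Hoxa9 was at -7.68 (SE 0.31), or -8.63 without rcMSC replicate 3, against -2.48 (SE 0.30) for Hoxd9. The Hoxa9 value rests on 0, 2 and 4 counts in rcMSC replicates 1 to 3, near the floor. From summed counts Hoxa9 was 218 times higher in rbMSC (exact binomial 95% interval 100 to 596). Hoxc9, with 475 counts in rbMSC and 2 in rcMSC, was 271 times higher in rbMSC (exact binomial 95% interval 74.7 to 2246). Both rcMSC counts were in replicate 2, and the fitted log2 fold change went from -7.82 to -10.38 without that library, where the rcMSC count is 0 and the value depends on the prior count. Hoxb8 had 0 counts in all libraries and Hoxb9 2 in all. For Hoxd4 the paralogs were Hoxc4, 58.8 times higher in rbMSC (22.6 to 218), and Hoxa4, 7.42 times higher (3.12 to 21.5), and both intervals overlap that of Hoxd4. The log2 fold change of Hoxc4 was -5.74, and -6.93 without rcMSC replicate 2. Hoxb4 had 15 counts in rbMSC and 14 in rcMSC. For Hoxd13 they were Hoxa13, with 45 counts in rbMSC and 5 in rcMSC, Hoxc13, with 11 and 6, and Hoxb13, with 0 and 2.

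**Figure D4:**
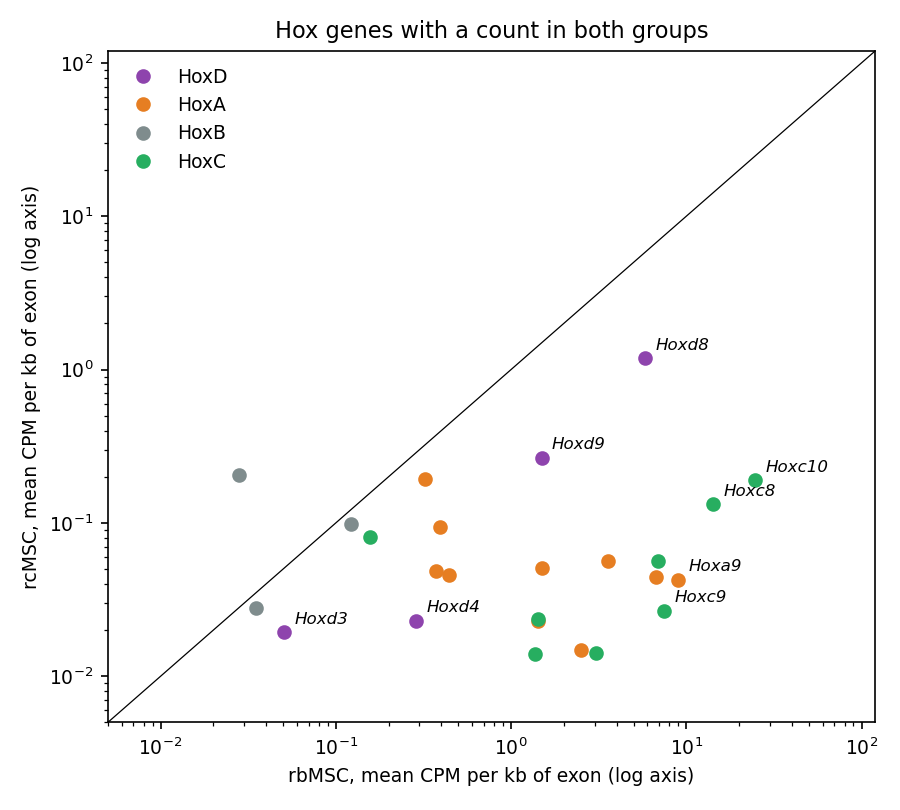
Mean level of each of the 25 Hox genes with a count in both groups, in CPM per kb of exon, rcMSC against rbMSC, on log axes, with the line of equal levels. Of the 25 genes, Hoxd8, at 1.18 in rcMSC and 5.80 in rbMSC, is the highest in rcMSC, and Hoxc10, at 24.8, is the highest in rbMSC.

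TALE homeodomain proteins bind DNA together with Hox proteins, and of 8 tested TALE genes 2 were higher in rcMSC, none was lower and the median log2 fold change was -0.02. Of all genes tested, 22.6% were higher and 23.2% lower, so the share of TALE genes that were higher was near that of all genes. The 2 were Meis2 (1.08, SE 0.09, edgeR adjusted p = 5.22e-06) and Pknox2 (0.67, SE 0.20, edgeR adjusted p = 0.0219). The call of Pknox2 ended when replicate 1 or 2 of either group was left out (edgeR adjusted p = 0.0738 to 0.0868), and without rcMSC replicate 3 there were 3 TALE genes higher and 2 lower.

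Of 19 tested Polycomb group genes 3 were higher and 7 lower in rcMSC, with a median of -0.03, and the 10 called stand near the 45.8% called over all genes tested. Jarid2, an accessory subunit of the methylating complex PRC2, fell most (log2 fold change -0.86, SE 0.08). Of the Polycomb genes 1 was higher without rbMSC replicate 2, rbMSC replicate 3 or rcMSC replicate 1, and 6 were higher without rcMSC replicate 3. Of 11 genes for MLL complexes, which keep Hox genes open, and for the H3K27 demethylases, 3 were higher and 4 lower, where 22.6% and 23.2% of all genes tested were, with a median of 0.05, and the methyltransferase genes Kmt2a and Kmt2b were lower, at -0.44 and -0.41.

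Retinoic acid turns on Hox genes in embryos, and of 12 tested genes for its supply and reception 4 were higher and 3 lower in rcMSC, with a median of 0.15, while 45.8% of all genes tested were called in either direction. Crabp1, which binds retinoic acid in the cell, rose by 4.43 on the log2 scale (SE 0.42, edgeR adjusted p = 1.51e-05), from 0.0864 CPM in rbMSC to 1.96 in rcMSC. Its mean rbMSC level was under the floor of 3 counts, which is 0.119 to 0.140 CPM in those libraries. The size of the rise is therefore uncertain, and it was 4.17 with limma voom. Aldh1a2, an enzyme that makes retinoic acid, fell by 3.14 (SE 0.32, edgeR adjusted p = 2.66e-05), from 4.16 CPM to 0.473. Of 9 tested limb genes known upstream or alongside HoxD, 2 were higher and 3 lower, with a median of 0.02, also beside 45.8% called over all genes. Gli2, a factor of hedgehog signalling, rose by 0.95 on the log2 scale (SE 0.14). Pitx1, a factor of the hindlimb, had 299 counts in rbMSC and 3 in rcMSC, and was 114 times higher in rbMSC (exact binomial 95% interval 38.6 to 555). Its log2 fold change was -6.65, and -7.52 without rcMSC replicate 3. Shh, which in the limb bud drives posterior HoxD genes, had 0 counts in rbMSC and 3 in rcMSC.

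The genes outside the Hox clusters whose log2 CPM followed HoxD genes most closely over the 6 libraries were listed for the 3 HoxD genes with most counts. For Hoxd8, Sema6d, a membrane semaphorin, was among them (Pearson r = 0.999), out of 13021 genes compared. For Hoxd9 they were Mbp (0.996), of myelin, and Epyc (0.994), a cartilage proteoglycan. For Hoxd4 they were Itgad (0.998), an integrin of leukocytes, and Cdh6 (0.997), a cadherin. The libraries form 2 separate groups, and 1302 genes reached an r above 0.95 with Hoxd8, so these values follow the difference between the groups and carry no test.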

How the data were processed

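Gene counts of 6 RNA-seq libraries were used. Per the labels' protocols, paired reads of 150 nt were trimmed by the authors with Trim Galore 0.6.7 and Trimmomatic 0.39. STAR 2.7.9a mapped them to mRatBN7.2, and featureCounts 2.0.1 gave counts per annotated gene, per the same labels. The submitters' processing notes also name DESeq2 1.20.0. The deposited counts are raw whole numbers with no normalization. Annotation release, strand setting and treatment of reads with several matches were not given in the sources used here, so a gene's reads and those of an overlapping or antisense gene cannot be told apart. Libraries were grouped by title. No label says whether the libraries of a group are separate animals or cultures, so each p-value measures only the spread between libraries, possibly a technical one.

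The test was edgeR's quasi-likelihood F test (edgeR 4.0.16 in R 4.3.3) after TMM scaling and filterByExpr, with robust dispersion estimates. P-values were adjusted by Benjamini-Hochberg over all 14836 genes kept, and the threshold was 0.05. Log2 fold changes compare rcMSC with rbMSC, and each SE was obtained from the fold change and its F statistic. Where a group had 0 counts, the fold is a bound at 3 counts over the group, which leaves out the counting error of the other group. Levels per kb use the length of counted exons in the deposited table. Alternatives were RLE and upper quartile scaling, total counts, other filters, DESeq2 1.42.0, limma voom (3.58.1), dispersion estimates that were not robust, a replicate block, and leaving out each library.

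The HoxD genes, the gene lists and the tests were chosen with earlier results of these data known. All 9 HoxD genes are named. Of each other list, up to 2 genes past the threshold with the largest change and a mean of at least 1 CPM are named, and the genes next to the cluster. Some genes that this rule picks are not reported here. Other genes were named after their values were seen.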

Additional observations from a re-analysis of the deposited data

How the results depend on the processing

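Hoxd8, Hoxd9, Hoxd4 and Hoxd13 were lower in rcMSC and past the threshold under every alternative run, 9 other settings and 6 fits without 1 library, and no HoxD gene was higher. The log2 fold change was -2.36 to -2.18 for Hoxd8, -2.66 to -2.24 for Hoxd9 and -4.17 to -3.26 for Hoxd4, each over the fits without 1 library. That of Hoxd13 was -6.57 to -6.42 in those fits and -4.62 with limma voom, and depends on the prior count. Without 1 library, the number of genes past the threshold was 5336 to 9070 in all, 3 to 10 among the neighbours of HoxD and 1 to 5 among the TALE genes. Without rcMSC replicate 3, the value of Mtx2 turned to 0.022 and did not pass (-0.11 to 0.022 over the fits without 1 library). The labels do not say whether the replicate numbers pair the libraries. Deviations from the group means of same-numbered libraries correlated at -0.03, 0.02 and -0.05 over genes, and only rbMSC replicate 2 correlated best with its own number. These values show no pairing but cannot exclude one. With the replicate block, 4 HoxD genes were lower and 6297 genes passed, against 6796 without it. Depth limits what can be said of Hoxd3, Hoxd10 and the 3 genes at 0 counts.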
